A study of Mus musculus with 4 samples.

Results

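The 10 genes described here encode proteins by which stem cells and multipotent progenitors of mouse bone marrow are told apart: Kit, Ly6a, Cd34, Slamf1, Cd48, Cd244a, Procr, Flt3, Esam and Fgd5. They were taken by symbol from the 32285 genes counted in both libraries, and all 10 had UMIs (unique molecular identifiers, which count captured RNA molecules) in the cells analysed. Of these proteins 9 stand on the cell surface. Fgd5 encodes a cytoplasmic exchange factor of small GTPases, and is used to mark stem cells through reporter alleles. Transcripts were measured here, not the proteins that antibodies detect.

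The cells came from 2 male Tppp3CreER LSLTdTomato mice, in which a tamoxifen-inducible Cre is driven by the Tppp3 gene and switches on the red fluorescent protein tdTomato. Both mice received tamoxifen at postnatal days 0 and 3 and marrow was taken when they were 3 months old, so all groups share the genotype and the treatment, and no untreated mouse or mouse without Cre was analysed here. Bone marrow was enriched with c-Kit beads and sorted for cells without lineage antigens and with Sca-1 and Kit (Lin-Sca+Kit+), then divided by tdTomato into a positive and a negative tube per mouse. The 4 tubes carried 1 hashtag antibody each and were each split over 2 droplet kits of 10x Genomics (GEM-X and v3.1), with 1 gene expression library per chemistry. The sort is described in the labels both as a positive and a negative tube for both mice and as 4 tubes, and the hashtags separated 4 tubes. Levels over the 4 tubes are given throughout in the same order: negative of mouse 1, negative of mouse 2, positive of mouse 1, positive of mouse 2.

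In flow cytometry the Lin-Sca+Kit+ compartment is divided stepwise. Long-term repopulating haematopoietic stem cells (HSCs) carry CD150 (the product of Slamf1), EPCR (Procr) and ESAM, and lack CD48, CD244, CD34 and FLT3. Multipotent progenitors gain CD34 and then CD48 or FLT3, with FLT3 marking the lymphoid-primed ones, and CD150 is kept or regained on cells with megakaryocyte and erythroid potential. CD48 and CD244 bind each other. KIT and FLT3 are receptor tyrosine kinases for stem cell factor and FLT3 ligand.

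Slamf1, Cd48 and Cd244a belong to the signalling lymphocytic activation molecule (SLAM) family and are neighbours on mouse chromosome 1. In the GENCODE M21 annotation of mm10, Cd244a (ENSMUSG00000004709) lies at chr1:171559193-171609746, Cd48 (ENSMUSG00000015355) at chr1:171682009-171705258 and Slamf1 (ENSMUSG00000015316) at chr1:171767127-171801184, all on the plus strand and within 241992 bases. Cd34 (ENSMUSG00000016494) lies on the same chromosome at chr1:194938819-194961279 on the plus strand. Kit (ENSMUSG00000005672) lies at chr5:75574916-75656722 on the plus strand and Flt3 (ENSMUSG00000042817) at chr5:147330741-147400489 on the minus strand. Ly6a (ENSMUSG00000075602) lies at chr15:74994877-74998031 (minus), Procr (ENSMUSG00000027611) at chr2:155751117-155755471 (plus), Esam (ENSMUSG00000001946) at chr9:37528078-37538319 (plus) and Fgd5 (ENSMUSG00000034037) at chr6:91978878-92076004 (plus). Ly9 lies wholly inside the span of Cd244a on the opposite strand, and whether counting used strand is not known here, so the values of Cd244a are uncertain to that extent. Antisense genes also overlap Cd34, Flt3 and Fgd5. On the same strand Gm37010 lies inside Cd48 (1704 bases) and Gm44095 inside Fgd5 (1931 bases).

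The upstream sequences of the SLAM trio, Cd34 and Flt3 are shown because their detection patterns carry the results below. Each is the 240 bases that end 10 bases before the gene's RefSeq start (GRCm38.p6), 5′ to 3′ on the gene's own strand, and capitals mark matches to 4 short motifs on either strand.
Slamf1, chr1:171766882-171767121, plus strand: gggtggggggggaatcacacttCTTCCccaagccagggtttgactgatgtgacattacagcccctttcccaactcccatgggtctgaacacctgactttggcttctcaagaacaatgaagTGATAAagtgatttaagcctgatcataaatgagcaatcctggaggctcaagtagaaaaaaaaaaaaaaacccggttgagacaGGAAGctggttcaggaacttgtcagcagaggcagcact
Cd48, chr1:171681742-171681981, plus strand: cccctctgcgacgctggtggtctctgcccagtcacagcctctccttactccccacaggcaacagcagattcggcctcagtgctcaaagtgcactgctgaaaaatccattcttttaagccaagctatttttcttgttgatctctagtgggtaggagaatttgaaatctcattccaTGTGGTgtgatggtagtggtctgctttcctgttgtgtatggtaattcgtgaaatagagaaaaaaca
Cd244a, chr1:171558943-171559182, plus strand: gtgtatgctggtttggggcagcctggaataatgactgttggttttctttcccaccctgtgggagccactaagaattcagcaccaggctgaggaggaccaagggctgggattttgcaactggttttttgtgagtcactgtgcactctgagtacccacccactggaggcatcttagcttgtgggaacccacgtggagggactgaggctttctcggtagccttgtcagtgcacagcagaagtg
Cd34, chr1:194938571-194938810, plus strand: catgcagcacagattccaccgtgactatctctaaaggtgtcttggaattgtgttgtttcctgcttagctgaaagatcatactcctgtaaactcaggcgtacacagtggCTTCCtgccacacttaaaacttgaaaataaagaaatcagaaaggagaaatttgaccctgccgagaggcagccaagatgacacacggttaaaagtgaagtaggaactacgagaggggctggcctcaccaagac
Flt3, chr5:147400500-147400739, minus strand: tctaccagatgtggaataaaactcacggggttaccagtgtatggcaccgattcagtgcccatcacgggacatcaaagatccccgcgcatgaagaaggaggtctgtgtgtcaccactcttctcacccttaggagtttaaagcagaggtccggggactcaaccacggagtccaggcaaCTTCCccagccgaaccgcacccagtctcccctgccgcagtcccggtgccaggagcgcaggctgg

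The motif searched for GATA factors was AGATAA, with TGATAA as its other form. The motif for ETS factors was GGAAG, that for RUNX factors TGTGGT, and the E-box was searched as CAGCTG. None of these contains another. The window of Slamf1 held 1 GATA match and 2 ETS matches, that of Cd48 held 1 RUNX match, those of Cd34 and Flt3 held 1 ETS match each, and that of Cd244a held none of the 4. Of 32851 promoter windows of the same length, 16.2% held the GATA letters, 62.19% the ETS letters, 13.62% the RUNX letters and 12.41% the E-box letters. A match is a string of letters and not a binding site. Of the 10 genes 8 were in the RefSeq table, and the windows of Kit, Procr and Fgd5 reached into the annotated genes and are not printed.

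In all 234563105 UMIs were counted with GEM-X and 178214937 with v3.1, over 38266 cell barcodes, none of them shared between the libraries. After filters, 32330 cells carried exactly 1 hashtag and entered the description, at median depths of 7731 to 9315 UMIs per cell in the 4 tubes. To compare detection at equal depth, each cell was thinned at random to 4000 UMIs, which kept 30546 cells. A gene is called detected in a cell when at least 1 UMI was left after thinning. Clusters were made without the 10 genes and named from marker lists, and 3 clusters were HSC-like. Of these, cluster 1 was led by the immunoglobulin genes Igkc, Igha and Jchain and cluster 4 by interferon-response genes such as Ifit1 and Iigp1.

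The genes of the sort itself were far from evenly detected in cells sorted on their proteins. Kit transcripts were found in most cells and Ly6a transcripts in a minority. Kit, the stem cell factor receptor, was detected in 70.38% ± 4.418 of thinned cells (SD over 4 tubes) and in 88.97% of the same tubes' cells without thinning. Ly6a, which encodes the GPI-anchored Sca-1 protein, was detected in 22.63% ± 0.9795 of thinned cells and in 36.92% without thinning. The erythroid-like cluster is a class that should lack Ly6a, and there 0 of 166 thinned cells had a UMI (up to 2.198% by an exact 95% binomial interval). Without thinning, at a median depth of 34489 UMIs, its summed level in those cells was 4.015 CPM (UMIs scaled to the same total in every sum). Only 16.2% of cells held both transcripts at 4000 UMIs and 23.11% held neither, in a sort for cells with both proteins. Exact binomial intervals, here and below, cover counting error only.

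Cd34 and Flt3, the genes by which progenitors are set apart from stem cells, were the other transcripts found in more than 50% of cells. Cd34, a sialomucin, was detected in 72.86% ± 1.265 of cells (86.96% without thinning), and in 4.217% of erythroid-like cells (1.712 to 8.495%). Flt3 was detected in 55.58% ± 4.761 of cells (70.85% without thinning) and in 3.614% of erythroid-like cells. Among the SLAM genes, Cd48 was detected in 29.96% ± 3.815 of cells (49.19% without thinning), Cd244a in 18.11% ± 0.3009 (34.55%) and Slamf1 in 1.856% ± 0.5227 (3.705%). Slamf1 was thus the rarest of the 10, and its share over all cells must be read against 0.6024% of erythroid-like cells (0.01525 to 3.311%) and 0 of 430 cells (up to 0.8542%) of cluster 14, led by the granulocyte genes Elane and S100a9, all thinned to the same depth. Without thinning, the summed level of Slamf1 in cluster 14 was 0.1869 CPM. Procr, the endothelial protein C receptor, was detected in 11.6% ± 1.404 of cells (19.97%), Fgd5 in 9.044% ± 0.6162 (16.43%) and Esam, an adhesion molecule of endothelium and stem cells, in 7.773% ± 0.7884 (14.33%). In erythroid-like cells these shares were 1.205% for Procr, 0 of 166 cells for Fgd5 and 0.6024% for Esam.

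**Figure D1:**
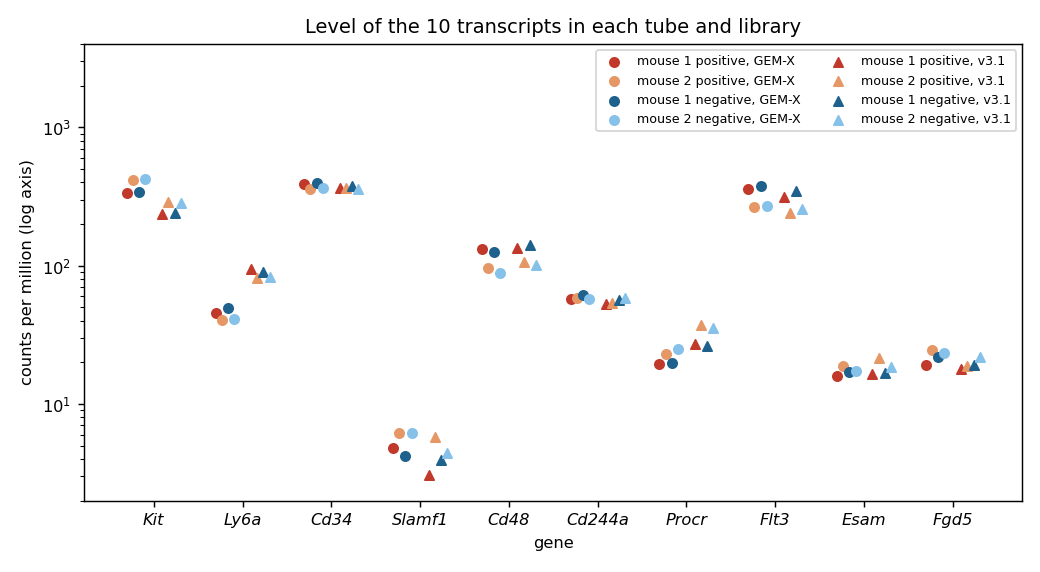
CPM, the UMIs of a gene scaled to a fixed total per sum of cells (log axis), of the 10 transcripts in each of the 4 tubes (colours), with GEM-X as circles and v3.1 as triangles, 1 point per tube and library. Ly6a and Procr sit lower with GEM-X in every tube and Kit sits higher, while points of the positive and negative tube of a mouse lie close together.

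The level of each gene, as CPM summed over the cells of a tube, differed little between the tdTomato gates. Between the gates 0 of the 10 genes passed edgeR's quasi-likelihood test, against 132 of 16586 genes tested (0.796%). At an unadjusted p under 0.05 there was 1, Flt3, and DESeq2 also called 0. Flt3 had 364, 263, 340.3 and 255.5 CPM in the 4 tubes. Both positive tubes lay below the negative tube of the same mouse, and both tubes of mouse 2 lay below both of mouse 1, so the gates overlapped. The log2 fold change of Flt3, positive against negative, was -0.07 ± 0.03 (SE of the fit, n = 2 mice; unadjusted p = 0.030065, edgeR adjusted p = 0.65613).

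Fgd5 had the largest absolute difference between the gates, -0.08 ± 0.05 on the log2 scale (edgeR adjusted p = 0.91529), with 20.8, 22.7, 18.7 and 22.3 CPM. Slamf1 had 4.1, 5.5, 4.1 and 6.0 CPM (log2 fold change 0.07 ± 0.10, edgeR adjusted p = 0.99855), and the other 7 lay between -0.06 and 0.06. Genes of other cell types were called between the gates in the same edgeR fit. Of the granulocyte-monocyte progenitor list 9 of 13 genes rose in tdTomato-positive cells, of the megakaryocyte-platelet list 5 of 11, and of the erythroid list 6 of 12 fell, while of 13 HSC genes 0 were called. Of 24 other sorting antigens 3 rose and 2 fell. These calls depend on the pairing by mouse, since with no mouse block 0 genes passed over all genes. They depend on other settings too. Over all genes 5 passed with DESeq2, 1 with GEM-X counts alone, 61 with v3.1 counts alone and 208 without a low-count filter. Fits with 1 tube left out had no mouse block and 1 tube in 1 of the gates. They therefore cannot show whether the calls rest on a single tube.

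The mice lay further apart than the gates for several of the 10. Kit had 297.5 and 293 CPM in the tubes of mouse 1 and 364 and 366 in those of mouse 2. Cd48 had 132.0 and 132.4 CPM in mouse 1 and 93.7 and 99.8 in mouse 2. Procr had 22.3 and 22.5 CPM in mouse 1 and 29.2 and 28.7 in mouse 2. In each of these, as for Flt3, both tubes of a mouse lay on the same side, and 2 mice do not allow a test. Shares of cells moved with the levels: Flt3 was detected in 60.71% and 58.49% of cells of mouse 1 against 52.19% and 50.92% of mouse 2, and Kit in 66.74% and 66.39% against 74.45% and 73.96%.

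The 2 chemistries gave different pictures of the sort's own genes. In sums paired by tube, 9 of the 10 genes passed the test between GEM-X and v3.1, as did 75% of the 15218 genes tested. Ly6a was lower with GEM-X, at 49.3, 41.5, 45.2 and 40.6 CPM against 89.5, 83.3, 94.953 and 81.4 CPM with v3.1 in the same tubes, with no overlap. Its log2 fold change was -0.97 ± 0.03 (n = 4 tubes, edgeR adjusted p = 2.8782e-16), a GEM-X level 0.51 times that of v3.1. Kit went the other way, with 340.1, 421.5, 333 and 416 CPM against 239, 284, 236 and 290.5, and the fold change on the log2 scale was 0.53 ± 0.02 (edgeR adjusted p = 1.7924e-16). All 4 GEM-X sums of Kit lay above all 4 of v3.1.

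Procr fell with Ly6a (log2 -0.52 ± 0.04, edgeR adjusted p = 1.0586e-09) and was lower with GEM-X in 4 of 4 tubes. Cd48 fell by 0.15 on the log2 scale, and Slamf1 (0.31), Fgd5 (0.18), Flt3 (0.13), Cd244a (0.08) and Cd34 (0.04) rose. Esam did not pass (-0.08, edgeR adjusted p = 0.11977). In shares of thinned cells, Ly6a was detected in 17.5% ± 1.008 with GEM-X and 29.27% ± 0.9651 with v3.1, and Kit in 75.34% ± 5.096 and 63.95% ± 3.638. Slamf1 lost its call without the negative tube of mouse 2 (log2 0.20, edgeR adjusted p = 0.126), Cd34 without the negative tube of either mouse (edgeR adjusted p = 0.27 and 0.217), and Cd244a without the negative (adjusted p = 0.18) or the positive tube (adjusted p = 0.0506) of mouse 1. With DESeq2 Slamf1 (adjusted p = 0.0555), Cd34 (adjusted p = 0.354) and Cd244a (adjusted p = 0.17) were not called, nor were Cd34 (adjusted p = 0.201) and Cd244a (adjusted p = 0.0657) by edgeR with the size factors of DESeq2. There was 1 library per chemistry, made with different Cell Ranger versions, so chemistry, software and library cannot be told apart.

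Across the 18 clusters, which were made without these genes, the 10 transcripts marked different compartments. Levels per cluster are CPM of the summed cells, with the range over tubes in parentheses, and no test applies. Cluster 1, HSC-like, had the highest levels of Esam (54.72 CPM, 49.84 to 61.05) and Fgd5 (59.95, 53.01 to 69.51), the second highest of Slamf1 (21.65, 18.55 to 23.87) and the lowest of Cd48 (9.89, 8.362 to 10.81). It had low Flt3 (82.49 CPM) and Cd244a (11.93 CPM), and 185.4 CPM of Cd34 against 423.5 CPM over the unnamed clusters.

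The other HSC-like clusters carried only some of these features. Cluster 4 matched cluster 1 in Procr (76.38 against 75.86 CPM, with overlapping ranges over tubes) and had the highest Ly6a of all clusters (164.1 CPM, 154.1 to 178.7), but its Flt3 stood at 409.0 CPM and its Slamf1 at 1.639 CPM. Slamf1 was detected in 0.4274% of cluster 4 cells (0.221 to 0.7453%), inside the wide exact interval of the erythroid-like cluster (0.01525 to 3.311%). Its summed level in cluster 4 ranged from 0.0 to 3.406 CPM over tubes. That level was 1.92 CPM in the erythroid-like cluster and 0.1869 CPM (0.0 to 0.2959) in cluster 14. Cluster 8, the third HSC-like cluster, was the second highest in Kit (496.3 CPM) with 33.41 CPM of Esam, 39.86 CPM of Fgd5 and 416.8 CPM of Cd34. Of the 3 HSC-like clusters, all had Procr at 48.38 CPM or more, and Slamf1 was at 21.65 CPM in cluster 1 against 1.639 and 2.647 CPM in clusters 4 and 8.

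Slamf1 was highest outside the HSC-like clusters. The megakaryocyte-platelet-like cluster 9 had 26 CPM (23.13 to 29.33) against 21.65 CPM in cluster 1, and the ranges of these levels over tubes overlapped. A UMI was found in 9.41% of thinned cells of cluster 9 (exact interval 8.068 to 10.89%) and in 6.573% of cluster 1 (5.832 to 7.378%). Cluster 9 also had Esam (24.27 CPM), little Procr (3.093 CPM), Fgd5 (6.605 CPM), Ly6a (16.2 CPM) and Flt3 (27.26 CPM), and more Cd48 (66.41 CPM) than any HSC-like cluster. The 2 clusters with the most Slamf1 therefore differed in the other genes, with Procr at 75.86 CPM in cluster 1 and Cd48 at 66.41 CPM in cluster 9.

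Flt3 was highest in the lymphoid progenitor-like cluster 11, with 1018 CPM (974.1 to 1062) and a UMI in 96.84% of cells. Cluster 3, unnamed, followed with 793.8 CPM and had the highest Cd34 (511.7 CPM, 495.3 to 544.9), beside cluster 2 (499.7 CPM, 486.3 to 514.8), whose range overlapped it. Cluster 2 also had 105.6 CPM of Cd244a (96.15 to 113.2), exceeded only in cluster 12 (141.4 CPM, 124.8 to 169.5), which had a median depth of 2521 UMIs per cell, and Cd48 (158.1 CPM). Cd48 was highest in the unnamed cluster 10 (201.2 CPM, 192.2 to 211.6). The genes that led cluster 10 included the cell cycle genes Pclaf, which came first, Ccne2 and Rrm2, beside Irf8, Mcpt8 and Ctsg. In the erythroid-like cluster all 10 genes except Kit (117.1 CPM) were at 19.2 CPM or less.

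**Figure D2:**
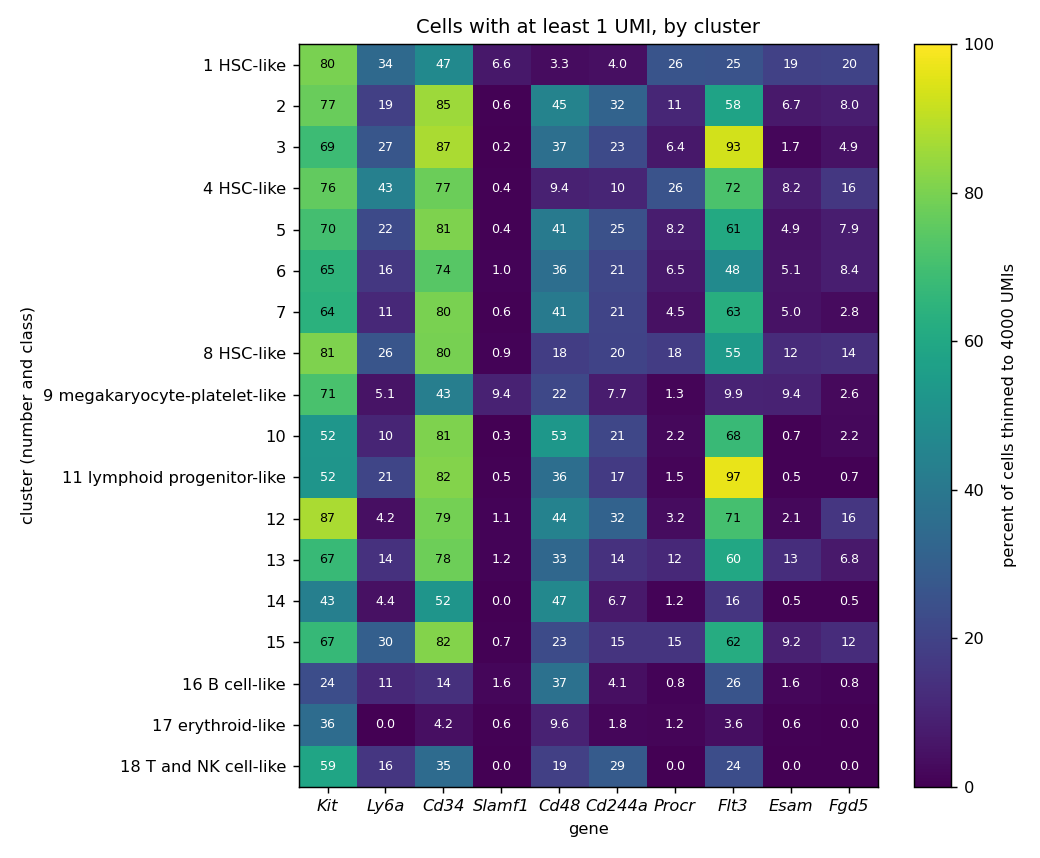
Percent of cells thinned to 4000 UMIs with at least 1 UMI of each gene (columns) in the 18 clusters (rows, with the class where one was named). Slamf1 stands out in clusters 1 (6.573%) and 9 (9.41%), Procr in the HSC-like clusters, Esam and Fgd5 in cluster 1, and Flt3 in clusters 3 and 11. Esam is found in 12.22% of HSC-like cluster 8, 8.155% of HSC-like cluster 4 and 13.08% of unnamed cluster 13. Fgd5 is found in 16.06% of HSC-like cluster 4, 13.59% of HSC-like cluster 8 and 15.79% of unnamed cluster 12 (95 cells). Procr is found in 15.13% of unnamed cluster 15 (152 cells) and Flt3 in 71.69% of HSC-like cluster 4.

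The genes with the most similar profiles over the 18 clusters were found by Pearson correlation of log2(CPM + 1), which is a description over clusters that share the same libraries. Procr was most like Fgd5 (0.958), another of the 10, and then Myof (0.947) and the HSC transcription factor gene Hlf (0.941). Esam was closest to Trim47 (0.951), Scarf1 (0.948) and Tie1 (0.939), an endothelial receptor gene. Cd34 was closest to Cd27, Csf3r and Kcnk12 (0.95 each), and Flt3 to Il1r1 (0.922), Sema3d and Msrb3. Slamf1 had the weakest nearest neighbour of the 10, Tgfbr3 (0.845), followed by Rab11a (0.776). The nearest genes were Clip2 for Kit (0.967), Shisa5 for Ly6a (0.957), BC035044 for Cd48 (0.888), Tespa1 for Cd244a (0.976) and Bend7 for Fgd5 (0.973).

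Within single cells the 10 transcripts fell into groups that were found together or apart. The measure is the log2 odds ratio of co-detection of a pair in thinned cells, as mean ± SD over 4 tubes. It describes cells of the same libraries and carries no test. Of the 45 pairs, 21 were above 0 in all 4 tubes, 16 below 0 in all 4, and 8 had both signs. Slamf1 and Esam had the highest ratio (1.62 ± 0.56), in 100 cells, or 0.3749% of cells where independence would give 0.1469%. Cd34 with Flt3 (1.28 ± 0.12), Ly6a with Procr (1.09 ± 0.07), Procr with Esam (0.89 ± 0.11), Procr with Fgd5 (0.88 ± 0.13) and Cd48 with its ligand gene Cd244a (0.85 ± 0.22) followed.

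Slamf1 stood apart from the progenitor genes. It was found with Flt3 in 99 cells, 0.2975% against 1.017% under independence, a log2 odds ratio of -2.70 ± 0.22. Its ratios with Cd34 (-1.99 ± 0.15), Cd244a (-1.70 ± 0.21) and Cd48 (-1.56 ± 0.44) were also below 0 in every tube. Cd48 was found less often than under independence with Procr (-1.07 ± 0.17), Fgd5 (-1.05 ± 0.14) and Esam (-1.02 ± 0.03), and Flt3 with Esam (-1.08 ± 0.12). Kit and Ly6a, the genes of the sort, were nearly independent over all cells (0.14 ± 0.08).

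The ratios were also computed within classes, over the pooled cells of all tubes. Within the 9373 thinned HSC-like cells the ratios of Slamf1 with Cd34 (-1.996), Flt3 (-2.44), Cd244a (-2.02) and Cd48 (-1.82) were again below 0, the last 2 with 8 cells each that held both. The ratios among Procr, Esam, Fgd5 and Ly6a were nearer to 0 than over all cells, at 0.07 for Procr with Esam, 0.18 for Procr with Fgd5 and 0.46 for Ly6a with Procr. Cd48 with Cd244a reached 1.38 and Slamf1 with Esam 0.91. Kit with Ly6a was at -0.28 in HSC-like and -0.33 in lymphoid progenitor-like cells, and at 0.14 in megakaryocyte-platelet-like and 0.04 in unnamed cells. In the 1711 megakaryocyte-platelet-like cells Slamf1 and Cd34 were close to independent (-0.18), as were Slamf1 and Cd48 (-0.23), while Slamf1 and Flt3 remained at -1.77 with 5 cells that held both. In the same class Slamf1 with Esam was at 0.24 (17 cells with both) and Slamf1 with Cd244a at -2.54 (2 cells).

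**Figure D3:**
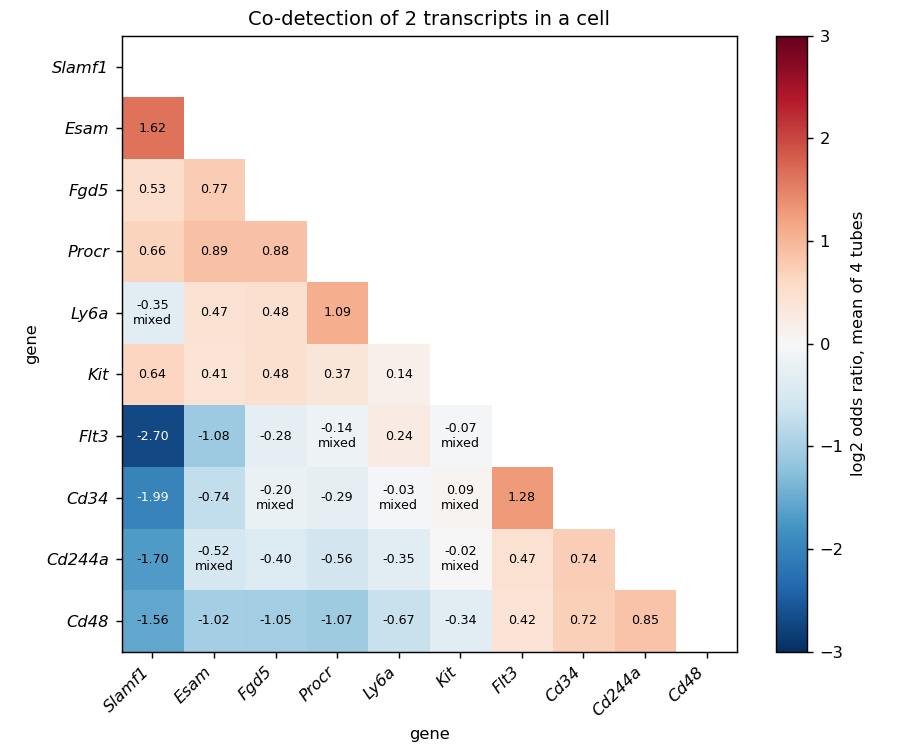
Log2 odds ratio of finding 2 transcripts in the same thinned cell, mean of 4 tubes, for the 45 pairs of genes. Slamf1 with Flt3 (-2.70) and with Cd34 (-1.99) are the lowest and Slamf1 with Esam (1.62) the highest.

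Full combinations of the 10 genes were diverse. Of the 1024 possible combinations of detected and not detected, 516 were seen and 153 were seen in at least 20 cells, and the median cell had 3 of the 10 transcripts. The most frequent was Kit, Cd34 and Flt3 together, in 2937 cells or 9.615% (8.662 to 9.985% over tubes). Kit with Cd34 alone followed in 6.358%, and Kit, Cd34, Cd48 and Flt3 in 5.045%. No member was detected in 630 cells (2.062%), and the highest number in any cell was 8, in 2 cells. None of the 25 most frequent combinations, which held 63.48% of cells, contained Slamf1 or Esam, and Procr and Fgd5 appeared in 1 each, with Kit, Cd34 and Flt3.

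Slamf1, Cd48 and Flt3 are the genes whose surface products divide the compartment in the widely used schemes, and their 8 detection patterns were followed further. Cells with none of the 3 made up 31.2% of thinned cells, Flt3 only 37.47%, Cd48 with Flt3 18.24% and Cd48 only 11.21%. Slamf1 only, the pattern nearest to the surface phenotype of HSCs, made up 1.378% (421 cells; exact interval 1.251 to 1.515%). Its shares were 1.162%, 1.575%, 0.8717% and 1.95% in the 4 tubes, higher in mouse 2 than in mouse 1 in both gates. Cells with none of the 3 were also more frequent in mouse 2 (35.37% and 35.05%) than in mouse 1 (26.83% and 28.06%), and cells with Cd48 and Flt3 less frequent (15.16% and 15.16% against 21.44% and 20.98%).

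Combinations of Slamf1 with the other 2 genes were rare: 52 cells with Cd48 (0.1702%), 76 with Flt3 (0.2488%, 0.1961 to 0.3113%) and 23 with both. Among 4421 thinned cells that carried more than 1 hashtag, and so hold cells of more than 1 tube, Slamf1 with Flt3 made up 0.7464% (0.5144 to 1.047%), above its share among cells with 1 hashtag. The part of undetected doublets in this pattern was not tested. At 4000 UMIs the absence of a transcript does not show that a cell lacks it.

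**Figure D4:**
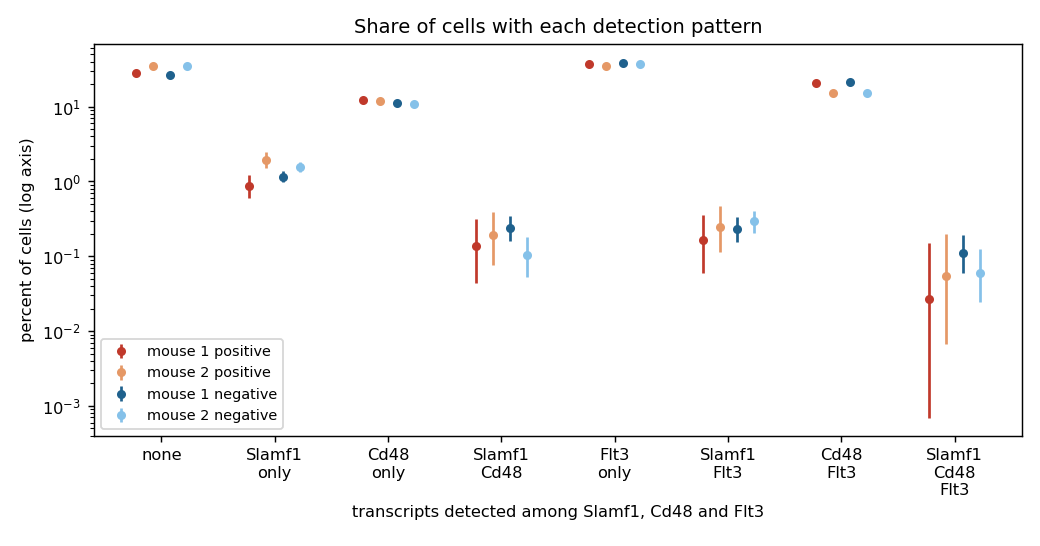
Percent of thinned cells (log axis) with each of the 8 detection patterns of Slamf1, Cd48 and Flt3 in the 4 tubes, with exact 95% binomial intervals. Slamf1 only lies between 0.8717% and 1.95%, and Slamf1 with Flt3 at 0.2926% or less.

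The patterns marked different classes of cells, with classes assigned without the 10 genes. Of Slamf1-only cells, 60.33% fell in the HSC-like clusters (53.12 to 62.22% over tubes), 30.4% in the megakaryocyte-platelet-like cluster (28.17 to 43.75%) and 9.026% in unnamed clusters. Of cells with none of the 3, 45.7% were HSC-like (40.0 to 47.87%) and 11.49% megakaryocyte-platelet-like (10.33 to 15.44%), and the ranges over tubes did not overlap with those of Slamf1-only cells for either class. Slamf1 together with Cd48 lay mostly in the megakaryocyte-platelet-like cluster (53.85% of 52 cells), with 9.615% in HSC-like clusters. Slamf1 together with Flt3 was HSC-like in 53.95% of 76 cells.

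Cd48-only cells were HSC-like in 10.16% (6.346 to 13.68%) and unnamed in 79.39%, and cells with Cd48 and Flt3 were unnamed in 85.5%. Flt3-only cells were HSC-like in 33.88% (27.23 to 40.94%), and 3.941% were lymphoid progenitor-like against 0.1154% of cells with none of the 3. Read the other way, 46.47% of HSC-like cells had none of the 3, 41.36% had Flt3 only and 2.71% had Slamf1 only (exact interval 2.391 to 3.059%). Median depths before thinning were 8186 UMIs for Slamf1 only, 8283 for none, 8329 for Flt3 only and 10698 for Cd48 only.

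To ask what else the patterns carried, counts of all cells of a tube with a pattern were summed and compared across the 4 tubes with edgeR's quasi-likelihood test, with the tube as a block and the 3 genes that define the patterns left out. The tube block takes out differences between tubes, so the p-values rest on the spread that is left over all sums of a fit. They do not measure the spread between the 2 mice. In Slamf1-only cells against cells with none of the 3, 4 of the 7 remaining genes rose and 2 fell, against a background of 12.6% of 15701 genes called. Cd34 and Cd244a, both absent from the surface of HSCs in the usual schemes, fell, and Esam, Fgd5, Procr and Kit rose.

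Cd34 stood at 126, 119.6, 113 and 130.04 CPM in Slamf1-only cells of the 4 tubes and at 291, 269.9, 278 and 261 CPM in cells with none of the 3. The groups did not overlap, and Cd34 was lower in 4 of 4 tubes. Its log2 fold change was -1.16 ± 0.06 (SE of the fit, n = 4 tubes, edgeR adjusted p = 1.4622e-14). Cd244a stood at 10.2, 13.6, 15.7 and 11.2 CPM against 39.7, 38.5, 37.3 and 38.1 CPM, again without overlap (log2 -1.68 ± 0.17, edgeR adjusted p = 1.7801e-08).

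Esam stood at 42.1, 44.986, 53.4 and 57.8 CPM in Slamf1-only cells and at 29.7, 24.7, 26.5 and 30.4 CPM in cells with none of the 3. All 4 Slamf1-only sums lay above all 4 others (log2 0.76 ± 0.13, edgeR adjusted p = 9.3015e-05). Genes of endothelial and stromal cells, in which Esam is also known, were at 0 to 7.42 CPM summed over 7 genes in Slamf1-only cells and at 1.295 to 2.091 CPM in cells with none of the 3, and their part in the rise of Esam was not tested. Procr (34.8, 42.5, 34.5 and 49.8 CPM against 29.8, 30.4, 26.7 and 32.4) rose by 0.41 ± 0.14 (edgeR adjusted p = 0.045873). Fgd5 rose by 0.44 ± 0.15 (edgeR adjusted p = 0.042058) with overlapping groups, since its positive tube of mouse 1 had 25.1 CPM against 24.8 to 29.3 CPM. Kit rose by 0.21 ± 0.05 (edgeR adjusted p = 0.0050995), in 4 of 4 tubes, and Ly6a (43.5, 55.5, 34.5 and 51.4 CPM against 65.0, 56.2, 61.4 and 58.3) did not pass (-0.29 ± 0.14, edgeR adjusted p = 0.17973).

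The smaller rises rested on few cells, 32 to 183 per tube. Without the negative tube of mouse 2 or without the positive tube of mouse 1, Kit (adjusted p = 0.0557 and 0.0539 by edgeR), Procr and Fgd5 lost their calls, and 3 of 7 genes were called. Procr and Fgd5 also lost them without the positive tube of mouse 2. With v3.1 counts alone Kit, Procr and Fgd5 lost their calls, and the log2 value of Fgd5 was 0.01. Procr also lost its call with GEM-X counts alone (edgeR adjusted p = 0.141), and Procr and Fgd5 when cells were thinned to 2000 or 6000 UMIs. With thinned counts all 3 lost them, and with no replicate block Kit and Procr did. When the comparison was restricted to HSC-like cells, an alternative added after the data were seen, Cd34 (-1.08) and Cd244a (-1.98) fell as before and Ly6a fell (-0.40, edgeR adjusted p = 0.0491). There Esam (0.44, edgeR adjusted p = 0.098), Fgd5 (0.35), Procr (0.23) and Kit (-0.02) were not called.

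**Figure D5:**
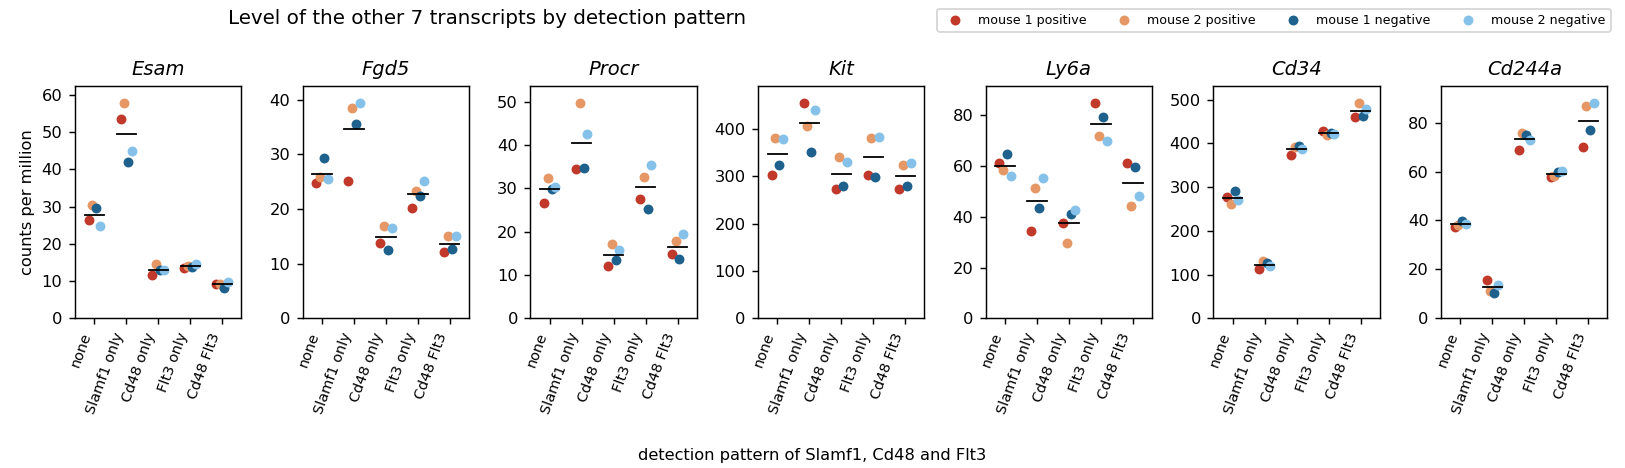
CPM of the 7 genes that do not define the patterns, in sums of cells by detection pattern of Slamf1, Cd48 and Flt3, with 1 point per tube (colours) and axes that start at 0. Among the 5 patterns plotted, Cd34 and Cd244a are lowest and Esam highest in Slamf1-only cells.

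Gene lists outside the 10 moved in the same comparison. Of 13 HSC genes 11 rose in Slamf1-only cells (median log2 fold change of the list 0.61, of all genes -0.02), among them Ctnnal1 (1.20), Mycn (0.99) and Mllt3 (0.80). Of 11 tested megakaryocyte-platelet genes 7 rose, led by Vwf (1.86 ± 0.19), the gene of von Willebrand factor, and Gp9 (1.14). Among 24 other sorting antigens 11 rose and 5 fell, with Itgb3 (1.28) and the angiopoietin receptor gene Tek (0.88) up and Cd53 (-1.64) down. Of 7 tested genes of the SLAM locus 2 rose, F11r (0.58) and Cd84 (0.31), and of 14 G2/M genes 11 fell.

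Markers of committed cells moved with the cells that had none of the 3 transcripts. Of 6 tested neutrophil genes all fell in Slamf1-only cells, from a summed level of 368 to 539.9 CPM to 3.71 to 25.88 CPM, and Camp was at 0 to 0.616 CPM. Of 13 granulocyte-monocyte progenitor genes 10 fell, from 984.5 to 3655 CPM summed to 152.1 to 218.5 CPM. Erythroid genes were at 929.3 to 1518 CPM and 941.3 to 1330 CPM, with 2 up and 8 down. The part of these other cells in the values over all cells was not tested, and the values within HSC-like cells, given above, leave the other clusters out.

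In Cd48-only cells against cells with none of the 3, all 7 genes passed, 2 up and 5 down, where 34.6% of all genes passed. Cd244a rose from 39.7, 38.5, 37.3 and 38.1 CPM to 74.9, 73.0, 68.8 and 75.9 CPM, without overlap (log2 0.93 ± 0.05, edgeR adjusted p = 1.06e-15). Cd34 rose to 394, 388.5, 375 and 393 CPM (0.49 ± 0.03, edgeR adjusted p = 2.9462e-13). Esam fell to 12.9, 13.0, 11.6 and 14.7 CPM (-1.08 ± 0.08, edgeR adjusted p = 1.782e-12), below every sum of cells with none of the 3. Procr (-1.04 ± 0.08), Fgd5 (-0.87 ± 0.08), Ly6a (-0.62 ± 0.07) and Kit (-0.18 ± 0.04) fell too. Within HSC-like cells Cd244a (1.43), Cd34 (0.62), Fgd5 (-0.81), Procr (-0.47) and Ly6a (-0.35) kept their directions and calls, while Esam (-0.20, edgeR adjusted p = 0.523) and Kit (-0.08, edgeR adjusted p = 0.481) lost them.

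The cells with Cd48 only had more of the granulocyte-monocyte progenitor and cell cycle transcripts and less of the neutrophil ones. Of 13 granulocyte-monocyte progenitor genes 11 rose and 1 fell, with Cebpa (1.19) and Irf8 (1.18) as examples, and their summed level spread from 1630 to 6789 CPM over tubes. Of 6 tested neutrophil genes all fell, among them Ngp (-6.00) and Camp (-5.22), from 368 to 539.9 CPM summed to 7.995 to 55.87 CPM. All 13 HSC genes fell, among them Mecom (-1.01) and Prdm16 (-1.02). All 14 G1/S genes and 13 of 14 G2/M genes rose, among them Ung (0.46) and Cdk1 (0.32). Of the 24 other sorting antigens 7 rose and 13 fell, with Cd53 (0.61) up and Tek (-0.88) down.

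In Flt3-only cells against cells with none of the 3, 3 of the 7 genes rose and 2 fell, against a background of 38%. Cd34 was at 423, 421, 428 and 419 CPM, above every sum of cells with none of the 3 (log2 0.62 ± 0.03, edgeR adjusted p = 1.9359e-16). Cd244a rose to 59.7, 60.4, 57.7 and 58.1 CPM (0.62 ± 0.04) and Ly6a to 79.3, 69.8, 84.9 and 71.7 CPM (0.33 ± 0.05, edgeR adjusted p = 6.4169e-06). Esam fell to 13.7, 14.6, 13.4 and 14.1 CPM (-0.97 ± 0.06, edgeR adjusted p = 2.2181e-14). Fgd5 fell by 0.21 on the log2 scale (edgeR adjusted p = 0.0049529), a call lost without the negative tube of mouse 1 (-0.11, edgeR adjusted p = 0.191). The call of Fgd5 was also lost at 6000 UMIs (-0.12, edgeR adjusted p = 0.247), with v3.1 counts alone (0.0655) and with no replicate block (0.0762). Procr (0.01 ± 0.06) and Kit (-0.03 ± 0.03) did not pass. Within HSC-like cells Ly6a was at 0.06 and not called (edgeR adjusted p = 0.436).

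Lymphoid genes rose with Flt3. Of 8 lymphoid progenitor genes 5 rose and 1 fell, led by Dntt (2.92 ± 0.15), the terminal transferase of lymphoid precursors, and the chromatin organiser gene Satb1 (1.67 ± 0.04). Of 12 erythroid genes all fell, as did 10 of 11 tested megakaryocyte-platelet genes and all 14 G2/M genes. Of 13 HSC genes 12 fell and 1 rose. Among the other sorting antigens 9 of 24 rose and 12 fell, with Cd53 (0.89) up and Itga2b (-1.37), Tek (-1.29) and Cd9 (-1.07) down, and among the SLAM locus genes Ly9 rose (0.77), which overlaps Cd244a.

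Slamf1-only and Flt3-only cells, both without detected Cd48, were also compared directly, and all 7 genes that do not define the patterns passed between them, 4 up and 3 down, where 18.8% of genes passed. Esam was higher in Slamf1-only cells by 1.73 ± 0.14 (edgeR adjusted p = 2.4787e-11), Fgd5 by 0.66 ± 0.15 (0.0013739), Procr by 0.40 ± 0.14 (0.038545) and Kit by 0.23 ± 0.05 (0.00079038) on the log2 scale. Cd244a (-2.30 ± 0.16), Cd34 (-1.78 ± 0.06) and Ly6a (-0.63 ± 0.13) were lower, each in 4 of 4 tubes. Procr lost its call without the negative tube of mouse 1 or either positive tube, and within HSC-like cells both Procr (0.19) and Kit (0.01) did. Procr also lost it with the counts of either chemistry alone, with thinned counts and at 2000 or 6000 UMIs. With v3.1 counts alone Kit (edgeR adjusted p = 0.109), Ly6a (0.0602) and Fgd5 (log2 0.20, adjusted p = 0.761) lost theirs too. With no replicate block Procr and Kit were not called. This comparison and the earlier ones share sums of cells and are not independent of each other. Of 11 tested megakaryocyte-platelet genes 10 rose, Pf4 (4.25) and Vwf (3.43) by the most, and of the 24 other sorting antigens 12 rose and 8 fell.

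Procr divides the compartment in another scheme, so cells with none of Slamf1, Cd48 and Flt3 were split by it, a choice made once the data had been looked at, because Slamf1-only cells with Procr were too few (67 cells). Of the 6 genes left, 4 rose and 1 fell in the 1331 cells with Procr, against a background of 44.9% of 12757 genes. Ly6a stood at 143, 112, 125 and 109.8 CPM with Procr and at 57.0, 50.6, 56.3 and 53.0 CPM without (log2 1.20 ± 0.06, edgeR adjusted p = 1.0463e-19). Fgd5 stood at 53.9, 49.9, 42.7 and 55.3 CPM against 27.0, 23.2, 23.6 and 22.7 CPM (1.06 ± 0.09, edgeR adjusted p = 2.5919e-13). In both Ly6a and Fgd5 all 4 sums with Procr lay above all 4 without.

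Esam rose by 0.75 ± 0.09 (edgeR adjusted p = 3.8475e-09) and Kit by 0.15 ± 0.04 (edgeR adjusted p = 0.0026886, and 0.0576 without the negative tube of mouse 2). Kit also lost its call with thinned counts (edgeR adjusted p = 0.196) and with no replicate block (0.159). Cd244a fell by 0.62 on the log2 scale (edgeR adjusted p = 1.0045e-06), and Cd34 did not pass (-0.03 ± 0.05), with a sign that changed without the negative tube of mouse 1 (0.04). With thinned counts (-0.14, edgeR adjusted p = 0.0278) and at 2000 UMIs (-0.12, edgeR adjusted p = 0.0484) Cd34 was called lower. Within HSC-like cells 3 of the 6 were called, Ly6a (0.43), Fgd5 (0.33) and Cd244a (-0.51), and Esam (0.18, edgeR adjusted p = 0.466) and Kit (-0.10) were not. Of 13 HSC genes 12 rose with Procr, among them Hlf (0.91), while all 14 G1/S and all 14 G2/M genes fell, Birc5 by 1.92 on the log2 scale. All 12 erythroid and all 13 granulocyte-monocyte progenitor genes fell.

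Detection of Procr, Esam and Fgd5 together was rare. All 3 were found in 0.4887% ± 0.6651 of Slamf1-only cells and 0.4039% ± 0.105 of cells with none of Slamf1, Cd48 and Flt3, a difference within the spread over tubes. None of Procr, Esam and Fgd5 was found in 57.25% of Slamf1-only cells (47.89 to 61.75%), 68.68% of cells with none of the first 3 (68.04 to 69.63%), 74.87% of Flt3-only cells and 85.02% of cells with Cd48 and Flt3 (82.91 to 87.11%). Slamf1-only cells had Esam in 21.63% ± 5.404, Procr in 16.75% ± 3.911, Fgd5 in 14.4% ± 1.85 and Cd34 in 34.4% ± 3.127 of cells. In cells with Cd48 and Flt3 these shares were 3.889% ± 0.5576, 7.067% ± 1.674, 5.356% ± 0.7186 and 83.06% ± 0.8103, outside the range over tubes of Slamf1-only cells for each gene.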

How the data were processed

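Single-cell RNA was measured in 2 libraries of the same 4 tubes. The values deposited by the authors are raw counts of UMIs, made with Cell Ranger per the file headers and aligned to mm10 per the submitters' processing notes, which name version 7.0.0. Which matrix is which chemistry was read from the matrix names. Cells under 1000 genes or over 10% mitochondrial counts were removed. Hashtags were called by a Gaussian mixture of 2 components (posterior 0.5), and cells with exactly 1 hashtag entered, which removes doublets between tubes. Scrublet at a score of 0.15, set after its automatic threshold called 0%, was an alternative. Cells were thinned to 4000 UMIs for detection, leaving out 1784 shallower cells.

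Clusters (scanpy 1.11.5, leidenalg 0.10.2; 2000 variable genes, 30 components, 30 neighbours, resolution 1) were made without the 10 genes and named from fixed markers, with naming thresholds set after the data were seen. A name needed at least 3 markers, and at least 66.7% of the detected markers of its list, raised by 0.5 on the log2 scale. The name was withheld where the 10 leading genes held more markers of another class. The same held where at least 3 of them were cell cycle genes or immunoglobulin heavy or light chain genes, or where depth was low.

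Counts were summed per tube, library or pattern, with at least 20 cells a sum, and tested with edgeR 4.0.16 (quasi-likelihood, TMM, low-count filter, Benjamini-Hochberg at 0.05) over all genes. DESeq2 1.42.0 was an alternative. Tubes of 1 mouse come from the same animal, and their deviations correlated at 0.638 over 14857 genes. Named list genes were up to 4 per list with the largest change among those that passed, at a minimum of 10 CPM and with 1 sign in all 4 tubes. The members and lists were chosen with earlier results of these data known. The comparison by Procr and the restriction to HSC-like cells were added after the data were seen. Some genes of the lists are not reported here by name.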

Additional observations from a re-analysis of the deposited data

Results flagged for a closer look

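For 2 genes the difference between the tdTomato gates had opposite signs in the groups compared, and neither difference between groups was tested. The log2 difference of Procr, positive minus negative, averaged -0.08 with GEM-X (-0.03 and -0.12 in the 2 mice) and was above 0 with v3.1 (0.04 and 0.07). That of Esam averaged -0.05 in mouse 1 (-0.08 and -0.02 in the 2 chemistries) and was above 0 in mouse 2 (0.12 and 0.21). In 35 groups of 4 tubes that were looked at for a single tube far from the other 3, 0 such tubes were found.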

How the results depend on the processing

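Directions and calls of the 10 genes changed under some of the alternatives, which are grouped here by setting. Between the gates 132 genes passed over all genes, but 5 did with DESeq2, 1 with GEM-X counts and 61 with v3.1 counts. The number was 18 with cells of at least 500 genes, 208 without the low-count filter and 24 without Scrublet doublets. Log2 differences between the gates changed sign with v3.1 counts for Kit (0.01), Ly6a (0.03), Cd48 (-0.01) and Procr (0.06). Gate fits with 1 tube left out had no mouse block, so their log2 differences also carry differences between the mice. They ranged from -0.18 to 0.15 for Kit, -0.12 to 0.08 for Ly6a, -0.06 to 0.02 for Cd34 and -0.23 to 0.33 for Slamf1. For Cd48 they ranged from -0.18 to 0.31, for Procr from -0.19 to 0.20 and for Flt3 from -0.30 to 0.18. The ranges were -0.09 to 0.20 for Esam and -0.21 to 0.04 for Fgd5.

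The mouse was the block between the gates, and the tube was the block between chemistries and between patterns. With no replicate block the genes that passed fell to 0 for the gates, 3055 of 5434 for Cd48 only against none, 3583 of 5962 for Flt3 only against none and 1243 of 1983 for Slamf1 only against none, and 3 of the 9 members called between the chemistries passed.

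With v3.1 counts, which hold fewer cells, these counts were 2877 for Cd48 only, 458 for Slamf1 only against none (3 members), 1179 of 2955 for Slamf1 only against Flt3 only (3 members) and 3570 of 5730 for the Procr comparison. With GEM-X counts 1309 passed for Slamf1 only against none. With thinned counts, which hold fewer UMIs, they were 3757 for Flt3 only, 1833 for Slamf1 only against Flt3 only, 660 for Slamf1 only against none (3 members) and 3176 for Procr. Within HSC-like cells they were 549, 1597, 1103 and 342 for Cd48 only, Flt3 only, Slamf1 only against Flt3 only and Slamf1 only against none, with 3 members in the last, and 274 with 3 members for Procr. Without 1 tube, Slamf1 only against none gave 1049 to 1849 genes and 3 to 6 members.

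Some log2 values changed sign. In Flt3 only against none they were Kit (0.02 at 6000 UMIs, -0.04 to 0.01 without 1 tube) and Procr (-0.05 with GEM-X counts, -0.10 with thinned counts, -0.11 at 2000 UMIs, -0.10 to 0.13 without 1 tube). In the Procr comparison they were Cd34 (0.07 at 6000 UMIs, 0.02 with v3.1 counts, -0.05 to 0.04 without 1 tube) and, within HSC-like cells, Kit (-0.10). Kit in Slamf1 only against none was -0.02 within HSC-like cells. The log2 odds ratio of Cd244a and Procr was 0.01 when detection needed 2 UMIs. Of the alternative values of member fold changes 639 kept direction and call, 67 lost a call, 3 gained one and 31 changed sign, and the cause was not tested.

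Shares of patterns, as means over tubes, depend on the detection rule by construction. At 2 or more UMIs they were 62.6% for none, 28.7% for Flt3 only, 5.65% for Cd48 only, 2.8% for Cd48 with Flt3 and 0.265% for Slamf1 only. At 2000 UMIs they were 51.2%, 31%, 9.6%, 7.23% and 0.79% in that order, and at 6000 UMIs 20.9% for none, 34.8% for Flt3 only and 29.2% for Cd48 with Flt3. Flt3 only was 39.2% with GEM-X and 34.4% with v3.1 cells, and Cd48 only 10.8% and 12.6%. The number of cells limits the rare patterns, with 32 to 183 Slamf1-only cells per tube. The planned comparisons of Slamf1 with Cd48 against Slamf1 only, and of Slamf1-only cells with and without Procr, were not run, because only 1 tube held 20 cells of the rarer pattern.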
